A study of Mus musculus with 3 samples.

Results

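The leukocyte integrins and the selectin ligand of flushed mouse bone marrow (BM) were followed over a course of LECT2, leukocyte cell-derived chemotaxin 2, a secreted protein. The genes were chosen by name, as Itgam, Itgal, Itgax, Itgb2, Itga1, Itgav, Itgb7 and Selplg, with earlier results of these data known. Rows matched 7 of the 8 names, out of 17250 gene names in the tables, and Itgal was not analysed here. Male C57BL/6 mice aged 6 to 8 weeks received recombinant LECT2 made in CHO cells, under the skin, once daily at 300 μg per kg. BM cells were sequenced from mice given no LECT2 (0 days) and from mice treated for 3 or 5 days, all of the same strain and of no named genetic change. Each time point had 1 library, and the number of mice behind a library is not given in the sources used here. The methods describe BM flushed from the bones, whereas the legend for these data names mononuclear cells of the BM.

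Integrins are cell surface receptors made of an α and a β chain, and both chains must be made for the pair to reach the surface. Itgb2 encodes the β2 chain (CD18), which pairs with αM (Itgam, CD11b), αX (Itgax, CD11c) and αD (Itgad) on myeloid cells and binds ICAMs, complement and fibrinogen when leukocytes adhere and crawl. Itgb7 encodes β7, the partner of α4 in homing to the gut, whereas α1 (Itga1) pairs with β1 to bind collagen and αv (Itgav) pairs with several β chains to bind fibronectin, vitronectin and osteopontin. Selplg encodes PSGL-1, the sialomucin on leukocytes through which the selectins slow and roll them on vessel walls before integrins take hold, and PSGL-1 binds selectins only after glycosyltransferases and tyrosine sulphotransferases have modified it.

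The depth of the libraries on genes was alike, with 15523952, 15146983 and 15514673 reads after 0, 3 and 5 days. Levels are given as the deposited RPKM, read counts scaled by gene length and by the depth on genes. Because no time point was repeated, no difference has a replicate check and no test was run. The 95% intervals are exact binomial intervals on read counts, and they cover counting error alone. Differences are given as fold changes of read counts scaled by depth, or as log2 ratios of RPKM + 0.1, a scale that understates the change of low genes. Over the genes that averaged 1 RPKM or more, the middle log2 ratio was 0.10 for 3 against 0 days, 0.31 for 5 against 0 days and 0.25 for 5 against 3 days. After TMM scaling (trimmed mean of M values, which levels the bulk of the genes) these medians were 0.02, 0.01 and 0.03, so each difference below is read against that shift. Genes that were at least 2-fold apart at 5 days were higher in 72.4% of cases as deposited and in 41.3% after TMM scaling. The corresponding shares were 62.9% and 48.9% at 3 days and 36.1% and 10.6% for 5 against 3 days.

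Marker genes of several blood cell types differed between the libraries. The summed level of 12 neutrophil granule and late neutrophil genes was 150237, 116374 and 41570 RPKM after 0, 3 and 5 days. At 5 days all 11 that reached 1 RPKM were 2-fold lower or more, S100a9 (61729, 44195 and 14032 RPKM) and S100a8 (28717, 23982 and 7789 RPKM) being the most abundant. Csf3r, the G-CSF receptor and a defining neutrophil gene, was listed at only 0.408, 0.953 and 0.326 RPKM. The summed level of 13 monocyte and macrophage genes was 5398, 6838 and 5932 RPKM, and its most abundant members were Lyz2 (3878, 5120 and 3898 RPKM) and Ly6c2 (932, 993 and 1138 RPKM). At 5 days 5 of these 13 were past 2-fold upward and 1 downward as deposited, and 3 upward and 1 downward after TMM scaling. Of all genes compared, 15.5% were past 2-fold upward and 5.91% downward as deposited, and 7.13% and 10.2% after TMM scaling. The sums over the other lists, at 0, 3 and 5 days, were 2241, 2075 and 3619 RPKM for 5 promyelocyte genes, 1518, 1094 and 1017 for 9 dendritic cell genes, 2058, 1643 and 1468 for 8 B cell genes, 201, 122 and 169 for 9 T and NK cell genes, and 762, 578 and 655 for 6 mast cell and basophil genes. They were 4348, 3524 and 1497 RPKM for 5 erythroid genes, 28.7, 11.05 and 25.8 for 5 megakaryocyte genes, 41.7, 35.9 and 45.1 for 4 endothelial genes, 32.8, 35.5 and 14.0 for 6 osteolineage genes, and 38.0, 30.4 and 32.9 for 4 osteoclast genes. A sum follows its most abundant genes, as in the osteolineage list, whose sum was highest at 3 days although 3 of the 4 genes compared were then below their 0-day level. Reads were found for every listed gene with a row in at least 1 library. In whole BM, fewer cells of a type and less RNA per cell cannot be told apart, and the part of these differences in the values below was not tested.

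The β2 chain and its αM partner were the most abundant integrin chains of the 7 genes. After 0, 3 and 5 days Itgb2 stood at 271, 401 and 273 RPKM, from 12023, 17382 and 12111 reads. Itgam, the αM chain, stood at 165, 269 and 160 RPKM, from 12003, 19102 and 11606 reads. For both chains the 3-day library was the high one and, as deposited, the 0- and 5-day libraries lay close together. At 3 days Itgam was 1.63-fold (95% interval 1.59 to 1.67) and Itgb2 1.48-fold (1.45 to 1.52) the 0-day level. At 5 days the ratio to 0 days was 0.968 (0.943 to 0.993) for Itgam and 1.01 (0.983 to 1.03) for Itgb2. The log2 ratio of Itgb2 at 5 days, 0.01 as deposited, was −0.30 after TMM scaling, and that of Itgam, −0.05, was −0.36. With the length trend removed these ratios were −0.39 for Itgb2 and −0.68 for Itgam. From 3 to 5 days the ratio was 0.593 (0.580 to 0.607) for Itgam and 0.680 (0.665 to 0.696) for Itgb2, log2 ratios of −0.75 and −0.56. TMM scaling took these to −0.98 and −0.78, and removal of the length trend to −1.04 and −0.83. Over the same 3 libraries the late neutrophil list had median log2 ratios of −0.12 at 3 days and −1.81 at 5 days against 0 days, and the monocyte and macrophage list of 0.58 and 0.60. After TMM scaling these medians were −0.21 and −2.11 for the late neutrophil list and 0.50 and 0.29 for the monocyte and macrophage list. With the length trend removed they were 0.13, a turn of direction at 3 days, and −1.47, and 0.42 and 0.28. The part of either list in the levels of Itgam and Itgb2 was not tested.

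**Figure D1:**
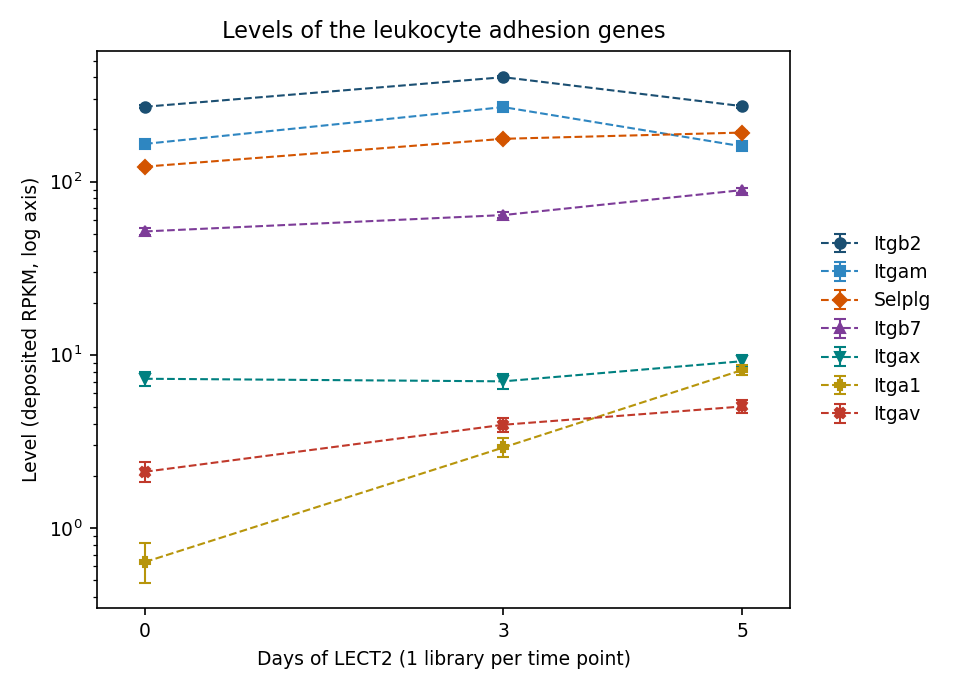
Level of each gene (RPKM, log axis) at 0, 3 and 5 days of LECT2, 1 library per time point, with 95% intervals that cover counting error alone. Itgb2 and Itgam peak at 3 days at 401 and 269 RPKM, whereas Itga1 goes from 0.635 to 8.16 RPKM. At the gene lengths in the tables Itga1 passes Itgav at 5 days.

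Itgax, the αX chain of dendritic cells and monocytes, lies next to Itgam on chromosome 7 but stood far lower, at 7.27, 7.02 and 9.18 RPKM from 454, 428 and 573 reads. Its 3-day level could not be told from the 0-day level within counting error (0.966-fold, 0.845 to 1.11), and its 5-day level was 1.26-fold (1.11 to 1.43) that at 0 days. On the log2 scale the 5-day ratio of Itgax was 0.33 as deposited, 0.03 after TMM scaling and −0.25 once the trend with gene length was removed. Unlike Itgam and Itgb2, Itgax had no 3-day peak. All 7 dendritic cell genes compared were below their 0-day level at both times, and their part in the level of Itgax was not tested. Itgad, the αD chain, was also low, with 1.64, 3.12 and 3.57 RPKM. It shares 384 exact words of 50 bases with Itgax transcripts, the only such pair among the 36 pairs formed by the genes described, Itgad and Itgb2l, so the split of reads between Itgax and Itgad is uncertain.

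Because both chains of a pair are read in the same library, their ratio does not depend on how libraries are scaled. The pairs were chosen after values had been seen. Itgam ran at 61.0% (59.5 to 62.6) of the Itgb2 level at 0 days, 67.2% (65.8 to 68.6) at 3 days and 58.6% (57.1 to 60.1) at 5 days. The 3-day share was the highest by counting error, but this order did not hold once the length trend was removed, when the 3-day log2 ratio was 0.34 for Itgam and 0.42 for Itgb2. Itgax ran at 2.69% (2.44 to 2.95), 1.75% (1.59 to 1.93) and 3.36% (3.09 to 3.66) of Itgb2, lowest at 3 days. Itgad ran at 0.605% (0.492 to 0.736), 0.779% (0.671 to 0.899) and 1.31% (1.14 to 1.49) of Itgb2.

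In GRCm38, Itgam spans chr7:128062640-128118491 and Itgax chr7:128129547-128150657, both on the plus strand, with 11055 bases between them. The bases just before the RefSeq start are shown for these neighbours because their levels differed so widely, and for Itga1, whose level differed most between days. Capitals mark GAGGAA, a core bound by PU.1 and other ETS factors, GGGCGG, an Sp1-type GC box, and TGANTCA, an AP-1-type site, each searched on both strands, and no match overlapped another. The positions are those of GRCm38, whereas the submitters' processing notes name mm8.
Itgam (chr7:128062390-128062639, plus strand): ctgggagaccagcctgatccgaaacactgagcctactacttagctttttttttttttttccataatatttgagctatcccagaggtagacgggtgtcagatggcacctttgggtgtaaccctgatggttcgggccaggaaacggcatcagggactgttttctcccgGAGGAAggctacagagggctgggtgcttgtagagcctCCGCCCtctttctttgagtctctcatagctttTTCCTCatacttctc
Itgax (chr7:128129300-128129549, plus strand): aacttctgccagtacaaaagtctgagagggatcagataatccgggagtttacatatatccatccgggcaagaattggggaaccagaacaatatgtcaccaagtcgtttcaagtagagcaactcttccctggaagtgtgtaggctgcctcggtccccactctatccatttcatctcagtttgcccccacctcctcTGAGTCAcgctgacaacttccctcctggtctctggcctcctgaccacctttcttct
Itga1 (chr13:115101965-115102214, minus strand): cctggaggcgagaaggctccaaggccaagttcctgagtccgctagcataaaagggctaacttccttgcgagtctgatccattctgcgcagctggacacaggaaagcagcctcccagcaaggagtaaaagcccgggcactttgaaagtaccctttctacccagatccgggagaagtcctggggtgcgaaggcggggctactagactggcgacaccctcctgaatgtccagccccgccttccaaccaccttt
The 250 bases before Itgam held GAGGAA at 84 to 79 bases before the start and, on the opposite strand, 15 to 10 bases before it, and GGGCGG on the opposite strand 47 to 42 bases before it. The Itgax window held TGANTCA 56 to 50 bases before the start, and the Itga1 window held none of the 3 motifs. Among 32851 windows of this length, 23.3% held GAGGAA, 32.7% GGGCGG and 6.75% TGANTCA. Windows were matched for 5 of the 7 genes, without Itgb2 and Selplg. That of Itgav held GAGGAA on each strand and that of Itgb7 held none of the motifs.

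Among the 7 genes Itgb7 was the third integrin chain by level, at 51.6, 64.1 and 89.3 RPKM from 2158, 2617 and 3737 reads, higher in each later library. It was 1.24-fold (1.17 to 1.32) the 0-day level at 3 days and 1.73-fold (1.64 to 1.83) at 5 days. Its log2 ratio at 5 days of 0.79 was 0.48 after TMM scaling and 0.43 with the length trend removed, so the direction held in each. Against Itgb2 of the same library, Itgb7 ran at 19.1% (18.2 to 19.9), 16.0% (15.3 to 16.7) and 32.8% (31.6 to 34.0), with the highest share at 5 days. Its partner α4 (Itga4), which also pairs with β1 as VLA-4, a receptor that holds progenitor cells in the BM, stood at 20.2, 41.9 and 65.5 RPKM. The Itga4 to Itgb7 ratio was 0.392 (0.371 to 0.414), 0.653 (0.624 to 0.684) and 0.733 (0.706 to 0.761). The other β7 partner, αE (Itgae), stayed below 0.4 RPKM, with 7, 12 and 20 reads.

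Itga1, the collagen-binding α1 chain, was the lowest of the genes at 0 days and showed the largest fold difference of the 7. Its 59, 264 and 758 reads gave 0.635, 2.91 and 8.16 RPKM. Each later library was well above the one before, 4.59-fold (3.45 to 6.19) at 3 days and 12.9-fold (9.86 to 17.1) at 5 days over 0 days, and 2.80-fold (2.43 to 3.24) at 5 over 3 days. The log2 ratios of 2.03 and 3.49 were 1.97 and 3.20 after TMM scaling and 1.58 and 2.75 with the length trend removed. No gene among the 816 of like length was as high in the 5-day ratio. Its partner Itgb1 was common to all libraries at 38.6, 42.9 and 61.3 RPKM, and Itga1 ran at 1.65% (1.25 to 2.13), 6.78% (5.95 to 7.70) and 13.3% (12.3 to 14.4) of Itgb1.

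The reading of Itga1 is limited by its gene model. Itga1 spans chr13:114953096-115101964 on the minus strand and its model holds the gene Pelo on the same strand, with which it shares no exonic base. Pelo had 8.84, 7.77 and 12.1 RPKM, a smaller difference than that of Itga1. The model Gm49395 shares 685 exonic bases with Itga1, and Gm49368 shares 3450 with Itgam. Neither has a row of its own in the tables used here, so their reads and those of Itga1 and Itgam cannot be told apart. The same holds for Gm13684, which shares 634 exonic bases with Itgav on the opposite strand, since the counting is not stated to use strand. In GRCm38 the remaining genes are Itgav at chr2:83724397-83806916 and Itgb2 at chr10:77530252-77565708 on the plus strand, and Itgb7 at chr15:102215995-102231944 and Selplg at chr5:113818536-113832644 on the minus strand.

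Itgav, the αv chain, stood at 2.11, 3.94 and 5.03 RPKM from 231, 421 and 550 reads, again highest at 5 days. It was 1.87-fold (1.59 to 2.20) the 0-day level at 3 days and 2.38-fold (2.04 to 2.79) at 5 days. Its 5-day log2 ratio of 1.21 was 0.91 after TMM scaling and 0.41 with the length trend removed, which leaves it under 2-fold in both. Itgav was below its partner Itgb3 in every library, with an Itgav to Itgb3 ratio of 0.206 (0.177 to 0.238), 0.317 (0.283 to 0.355) and 0.605 (0.541 to 0.676), Itgb3 itself being at 10.2, 12.4 and 8.31 RPKM. Against Itgb5 the ratio was 0.717, 0.896 and 0.904, and all 3 intervals overlapped. Itga1 was below Itgav at 0 and 3 days, with ratios of 0.301 (0.222 to 0.402) and 0.739 (0.631 to 0.864), and above it at 5 days, with 1.62 (1.45 to 1.82). The 5-day order holds at the Itga1 length of 5984 bases used for its RPKM and turns with the 10967 bases of its longest transcript.

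**Figure D2:**
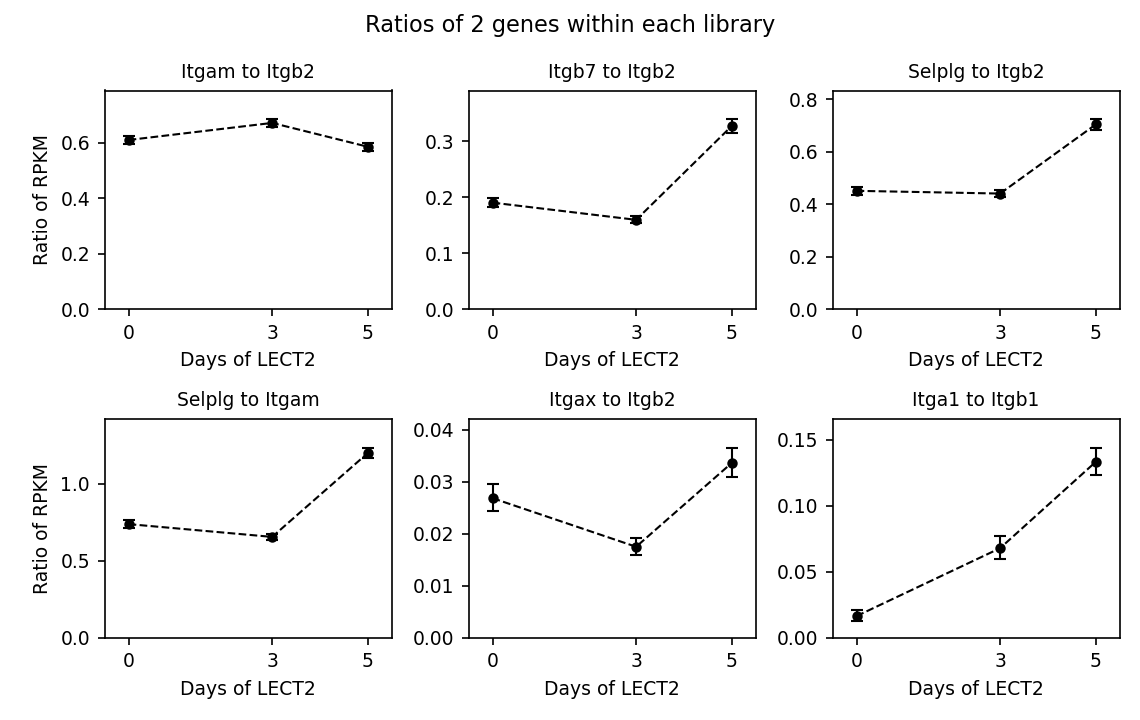
Ratio of RPKM between 2 genes of the same library (linear axes from 0) at 0, 3 and 5 days, with 95% intervals that cover counting error alone. Itga1 over Itgb1 goes from 0.0165 to 0.133, whereas Itgam over Itgb2 stays between 0.586 and 0.672 and Selplg over Itgam reaches 1.20 at 5 days.

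Selplg, which encodes PSGL-1, stood at 122, 177 and 192 RPKM from 4934, 6969 and 7756 reads. Its log2 ratio to 0 days was 0.53 (0.48 to 0.59) at 3 days, and at 5 days it was 1.57-fold (1.52 to 1.63) the 0-day level. Both treated libraries were above the 0-day library, and the log2 ratio at 5 days was 0.65 as deposited, 0.34 after TMM scaling and 0.31 with the length trend removed. Between 3 and 5 days the log2 ratio of 0.12 turned to −0.10 after TMM scaling and −0.14 with the length trend removed. The Selplg to Itgam ratio, which no scaling of whole libraries alters, was highest at 5 days, at 0.739 (0.715 to 0.764), 0.656 (0.638 to 0.674) and 1.20 (1.17 to 1.24) in order of time. The lower 3-day ratio did not hold once the length trend was removed, when the 3-day log2 ratio was 0.43 for Selplg and 0.34 for Itgam. The high 5-day ratio did hold, with 5-day log2 ratios of 0.31 for Selplg and −0.68 for Itgam.

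Ranked by RPKM, which is per length, the order at 0 and 3 days was Itgb2, Itgam, Selplg, Itgb7, Itgax, Itgav and Itga1. At 5 days Selplg stood above Itgam and, at the lengths in the tables, Itga1 above Itgav. Every pair of neighbours in these orders was apart by more than counting error, the closest being Itgax over Itga1 at 5 days with a ratio of 1.12 (1.01 to 1.25), and the spread between animals is unknown. RPKM rests on the length in the tables, which for Itga1 is 5984 bases against 10967 for its longest GENCODE transcript. With that longer length Itga1 would lie below Itgav at 5 days too, the length of Itgav being 7054 bases by both sources.

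Set against all genes, the 7 did not move as one. At 3 days against 0 days 1 of 7, Itga1, was at least 2-fold higher and none at least 2-fold lower, where 4.08% of 11325 genes with at least 1 RPKM in either library were 2-fold higher and 2.41% lower. At 5 days against 0 days 2 of 7, Itga1 and Itgav, were 2-fold higher and none lower, where 15.5% of 11497 genes were higher and 5.91% lower. Between 3 and 5 days 1 of 7, Itga1, was higher and none lower, where 1.95% of 11375 genes were higher and 3.45% lower. The median log2 ratio of the 7 was 0.57, 0.65 and 0.34 in these comparisons, beside 0.09, 0.31 and 0.25 for all genes compared. Both 5-day comparisons and the 3-day comparison share libraries, so they are not independent of each other.

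**Figure D3:**
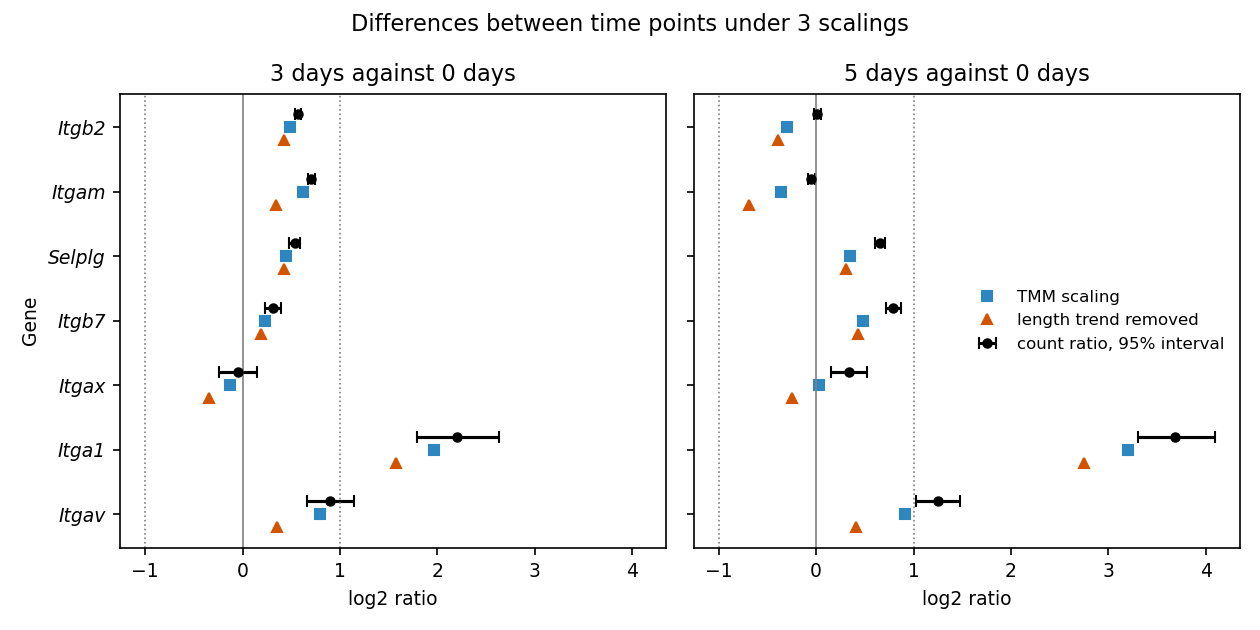
Log2 ratio against 0 days at 3 days (left) and 5 days (right) for each gene, as the count ratio with its 95% counting interval, after TMM scaling and with the trend against gene length removed, and dotted lines at 2-fold. At 5 days Itgb2 and Itgam lie near 0 as counted and below 0 under both other scalings, whereas Itga1 is past 2-fold under all 3.

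Longer genes had higher ratios in both treated libraries, and the genes described are of 2604 to 7054 bases. Among genes of a length within 0.2 log2 units, the median 5-day ratio was 0.35 around Selplg and 0.84 around Itgav. Placed among genes of like length, the 5-day ratio lay at percentile 12.2 for Itgam, 25.3 for Itgb2, 32.3 for Itgax, 71.5 for Selplg, 78.6 for Itgb7, 78.7 for Itgav and 100 for Itga1. At 3 days Itgam stood at percentile 84.0 and Itgb2 at 85.7, and for 5 against 3 days at 2.72 and 6.30. Itgam and Itgb2 were thus high among genes of like length at 3 days and low at 5 days.

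**Figure D4:**
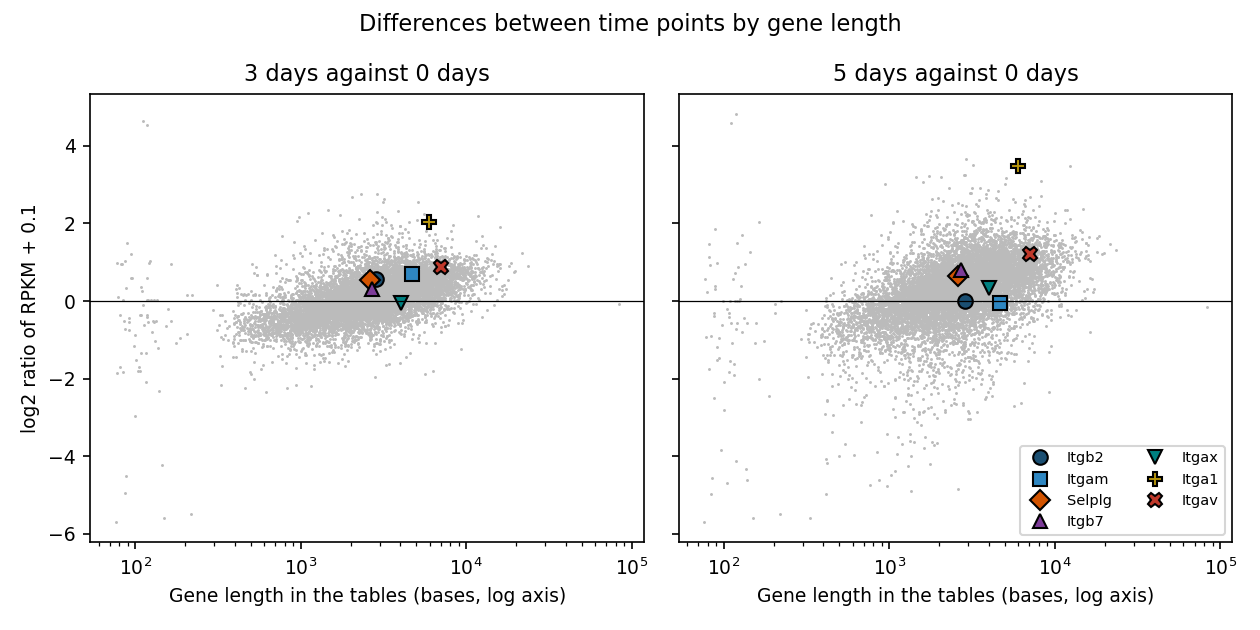
Log2 ratio against 0 days (RPKM + 0.1) by gene length in the tables (log axis), at 3 days (left) and 5 days (right), with genes that averaged 1 RPKM or more in grey. The genes between 2604 and 7054 bases sit in the bulk except Itga1, at 2.03 and 3.49.

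Integrin chains outside the 7 were described by the same counts. Of 19 listed, 9 had at least 1 RPKM in either library at 5 or 0 days, and 5 of these were at least 2-fold higher and none lower at 5 days, and the median of their log2 ratios was 1.04. After TMM scaling 2 of 9 were higher, with a median of 0.76, and with the length trend removed 1 was higher and 1 lower, with a median of 0.41. The share of all genes that were 2-fold higher was 15.5% as deposited, 7.13% after TMM scaling and 5.05% with the length trend removed. The 5 were Itga4 (log2 ratio 1.69), the laminin-binding α6 chain Itga6 (1.98, 4.16 and 7.59 RPKM, 1.89), the fibronectin-binding α5 chain Itga5 (5.44, 7.09 and 13.0 RPKM, 1.24), Itgad (1.08) and Itga9 (0.856, 1.49 and 1.87 RPKM, 1.04). Itga2b, the platelet αIIb chain, stood at 10.8, 8.34 and 11.2 RPKM. At 3 days 2 of 9, Itga4 and Itga6, were at least 2-fold higher, with a median of 0.56, beside 4.08% and 0.09 for all genes. Neither was 2-fold higher after TMM scaling, beside 3.10% of all genes.

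Of 12 integrin ligands with rows 8 reached 1 RPKM in either library, and 1 of the 8 was at least 2-fold higher and 1 lower at 5 days, shares near those of all genes (15.5% and 5.91%) at this number. Their log2 ratios had a median of −0.05 as deposited, −0.35 after TMM scaling and −0.14 with the length trend removed. Fn1, fibronectin, the ligand of α4β1, α5β1 and αv integrins, was the higher one, at 25.9, 102 and 223 RPKM, a log2 ratio of 3.10. Spp1, osteopontin, a ligand of αv and α4 integrins, was the lower one, at 25.7, 17.8 and 7.31 RPKM, a log2 ratio of −1.80. Vcam1, the stromal and macrophage ligand of α4β1, stood at 29.4, 39.9 and 48.3 RPKM, and the β2 ligands Icam1 and Icam2 at 17.3, 12.3 and 13.4 RPKM and at 29.3, 27.2 and 29.2 RPKM. At 3 days 1 of 8, Fn1, was at least 2-fold higher and none lower, beside 4.08% and 2.41% of all genes, and the median was −0.46.

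Beside Selplg, 8 selectins and selectin ligands had rows and 6 reached 1 RPKM, of which 2 were at least 2-fold higher and 1 lower at 5 days, beside 15.5% and 5.91% of all genes. Their log2 ratios had a median of −0.16 as deposited, −0.47 after TMM scaling and −0.49 with the length trend removed. Spn, the sialomucin CD43, stood at 48.3, 67.8 and 103 RPKM (1.10), and Glg1, an E-selectin ligand, at 11.6, 21.3 and 27.1 RPKM (1.22), but neither was 2-fold higher after TMM scaling. Selp, P-selectin of platelets and endothelium, had 65, 95 and 28 reads (−1.08). The abundant Cd24a (1325, 1280 and 1026 RPKM) and Cd44 (101, 117 and 89.2 RPKM) and the progenitor sialomucin Cd34 (24.1, 14.6 and 21.9 RPKM) were less than 2-fold apart. At 3 days none of the 6 was 2-fold apart, beside 4.08% of all genes higher and 2.41% lower, with a median of 0.35.

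The enzymes and transporter that build selectin ligands on PSGL-1 were all above their 0-day level at 5 days as deposited, 13 of 13, with 4 at least 2-fold higher and a median log2 ratio of 0.59. On that scale 67.3% of all genes compared were above 0, 15.5% were at least 2-fold higher and the median was 0.31. After TMM scaling 10 of 13 were above and 4 were 2-fold higher, beside 49.99% and 7.13% of all genes. With the length trend removed 10 were above and 3 were 2-fold higher, beside 50.3% and 5.05% of all genes. The 4 were the core 1 O-glycan synthase C1galt1 (21.0, 45.1 and 55.8 RPKM, 1.40), its chaperone C1galt1c1 (17.9, 28.1 and 48.2 RPKM, 1.42), the GDP-fucose transporter Slc35c1 (14.2, 24.9 and 43.1 RPKM, 1.59) and the fucosyltransferase Fut4 (1.49, 2.86 and 3.82 RPKM, 1.30). B4galt1 (46.9, 49.7 and 56.4 RPKM) and Galnt1 (38.6, 41.8 and 53.0 RPKM), the most abundant with C1galt1, were less than 2-fold apart. At 3 days 1 of 13, C1galt1, was 2-fold higher, with a median of 0.34, beside 4.08% and a median of 0.09 for all genes.

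**Figure D5:**
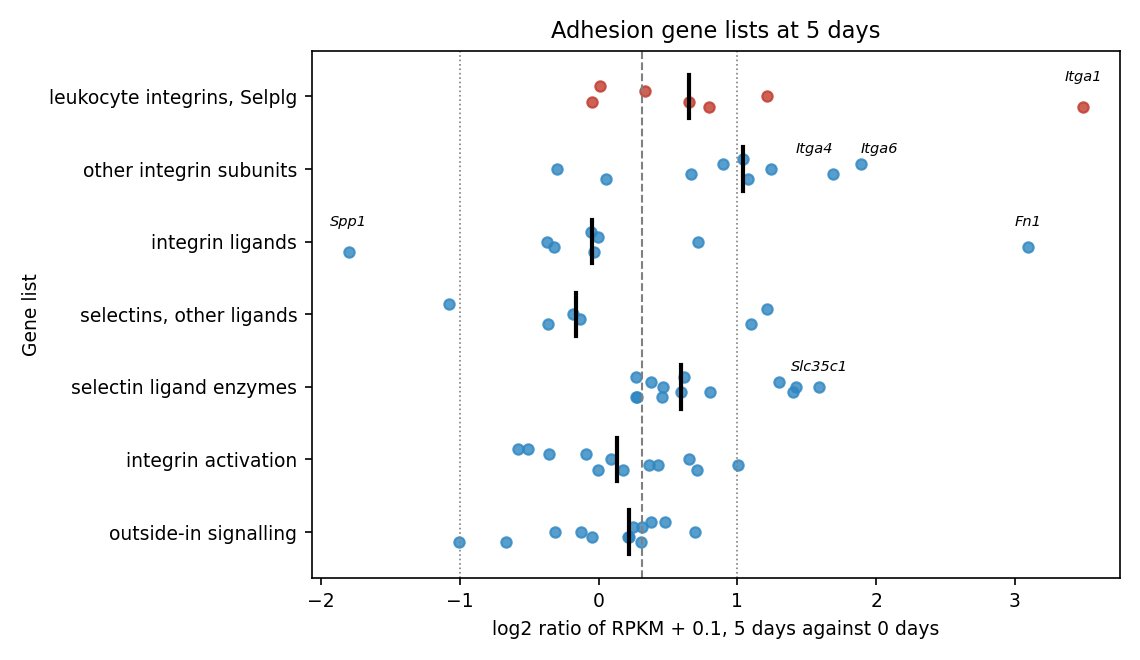
Log2 ratio of RPKM + 0.1 at 5 against 0 days for the integrins and Selplg (red) and 6 lists of related genes (blue), 1 point per gene, black bars at list medians, the dashed line at the median of all genes compared (0.31) and dotted lines at 2-fold. Itga1 and Fn1 stand far to the right at 3.49 and 3.10, and all 13 selectin ligand enzymes lie above 0 on this scale, as do 67.3% of all genes compared.

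Genes of the machinery that switches integrins on lay on both sides of their 0-day level. Of 12 activation genes 7 were above and 5 below it at 5 days as deposited, from −0.58 to 1.00 on the log2 scale. At least 2-fold higher was 1 of 12 and lower none, beside 15.5% and 5.91% of all genes, and the median log2 ratio of 0.13 was −0.18 after TMM scaling and −0.19 with the length trend removed. The one was Tln1, talin, which binds integrin tails (74.7, 134 and 150 RPKM, 2.01-fold), right at the threshold, and inside it after TMM scaling (log2 0.69). Its partner Fermt3, kindlin-3, stood at 88.0, 103 and 118 RPKM, the small GTPase Rap1b at 303, 281 and 202 RPKM, the kinase Stk4 at 88.1, 99.5 and 99.5 RPKM and the adaptor Skap2 at 102, 93.8 and 71.6 RPKM. At 3 days none of the 12 was 2-fold higher and 1 was lower, Skap1 (4.15, 1.66 and 3.21 RPKM), a T cell adaptor named here after its values were seen. Of all genes 4.08% were then 2-fold higher and 2.41% lower. The 9 T and NK cell genes were also all below their 0-day level at 3 days.

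Of 13 genes that signal from engaged integrins, none was at least 2-fold higher and 1 was lower at 5 days, beside 15.5% and 5.91% of all genes, and the median log2 ratio of 0.22 was −0.09 after TMM scaling and −0.24 with the length trend removed. The lower one was Fcer1g, an adaptor that β2 integrins use in neutrophils (1706, 1307 and 851 RPKM, 0.499-fold), again right at the threshold, and inside it with the length trend removed (−0.53). Its sister adaptor Tyrobp stood at 889, 874 and 560 RPKM, and Ilk at 106, 116 and 125 RPKM. The kinases Syk and Lyn stood at 117, 162 and 162 RPKM and at 99.9, 136 and 123 RPKM. At 3 days none of the 13 was 2-fold apart, with a median of 0.26, beside 4.08% of all genes higher, 2.41% lower and a median of 0.09.

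The genes closest to each pattern were found by the distance between pairs of log2 ratios at 3 and 5 days, over about 6163 genes that averaged 10 RPKM or more and only 3 libraries, so likeness of this kind is a description. The nearest to Itgam were Tlr13 and Kctd12, with only 3 genes within a distance of 0.1, and those nearest to Itgb2 were Cpd and Rnf13, with 14. For Itgax the nearest were Mrpl40 and Adh5 with 166 genes within 0.1, for Itgb7 Gtf3a and Tbc1d22b with 136, for Selplg Rps6ka1 and Hps3 with 110, and for Itgav Glg1 and Atad2b with 38. No gene lay within 0.1 of Itga1, and the nearest were Fn1 at 0.40 and Cbl at 0.59.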

How the data were processed

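Flushed BM cells from 3 libraries, 1 each at 0, 3 and 5 days of LECT2, were analysed from the tables the authors deposited. RNA was selected with oligo(dT) and prepared with a TruSeq kit. The authors deposited read counts per gene and RPKM values made from those counts, gene lengths and the reads on genes. Their methods name Cufflinks, the submitters' processing notes name the build mm8, and the aligner is not given in the sources used here. The deposited RPKM equalled counts over length and total within 0.1% in all but 18 rows at 0 days and 14 at 3 days. An RPKM of 0.01 stands for no reads and was set to 0. Columns of the authors' own comparisons (log2 ratios and p-values) were not used.

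A repeated name was represented by its most abundant row, by mean RPKM. Log2 ratios used RPKM + 0.1. A gene entered the counts where it had at least 1 RPKM in either library, and the threshold was 2-fold. Intervals were exact Clopper-Pearson at 95%. Alternatives were edgeR 4.0.16 TMM and DESeq2 1.42.0 size factors (scaling only, no count test with 1 library per group), the 100 most abundant genes left out, removal of a lowess trend with gene length (span 0.3), pseudocounts of 1 and 0.01 RPKM, other minima and thresholds, and repeated rows summed. Positions are from GENCODE on GRCm38 and promoter windows from RefSeq on GRCm38.p6. Python 3.11.15 and R 4.3.3 were used, and the calculation was tested on simulated data.

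The genes named are the members, the 5 most abundant of each of 6 related lists, every gene of those lists 2-fold apart at 5 days, the 2 most abundant of each marker list (given for the late neutrophil and the monocyte and macrophage lists, the others by their sums) and the 2 genes nearest to each pattern. Genes outside this rule, chosen after their values were seen, are Csf3r, Skap1, Itgb2l, the partner chains Itgae and Itgb5, and Pelo and the other models that overlap a member. Members and lists were chosen with earlier results of these data known, and the ratios within a library, Itgb2l and the motifs after values were seen. A further gene of the selectin list is not reported here.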

Additional observations from a re-analysis of the deposited data

How the results depend on the processing

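No paired analysis was possible because each time point had 1 library, and for the same reason no replicate could be left out. The median log2 ratio of the 7 genes at 3 days, 0.57, was 0.48 with TMM scaling, 0.49 with size factors, 0.47 once the 100 most abundant genes were left out, and 0.36 after removal of the length trend. At 5 days, 0.65 became 0.34, 0.35, 0.45 and 0.31 in the same order, and for 5 against 3 days 0.34 became 0.12 with TMM scaling, 0.13 with size factors and 0.032 with the length trend removed. At 3 days the count of genes 2-fold higher, 1, was 3 at a 1.5-fold threshold and 0 with a minimum of 5 RPKM. At 5 days the count of 2 was 1 with TMM scaling, size factors, the length trend removed, a pseudocount of 1 or a 4-fold threshold, and 4 at 1.5-fold. Of all genes compared, 7.13% were 2-fold higher with TMM scaling, 7.36% with size factors and 5.05% with the length trend removed. For 5 against 3 days the count of 1 higher was 0 at 4-fold, and that of 0 lower was 1 at 1.5-fold or with the length trend removed. With the length trend removed, 4.93% of all genes were 2-fold lower in that comparison. Shares of all genes at other thresholds, minima or pseudocounts are not given here, so those counts have no background to be read against. The other alternatives left these medians within the median counting interval of the 7 genes and the counts within 1.5 times. Summing repeated rows moved none of the 21 single log2 ratios, TMM scaling moved 17 of them and removal of the length trend moved all 21. Depth limits Itga1, with 59 reads at 0 days, most. With 1 library per time point the spread between animals is unknown, and time, library and cell make-up cannot be told apart. No library came from mice given vehicle for 3 or 5 days, so LECT2 and repeated injection cannot be told apart either.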

Other observations

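Itgb2l, the integrin β2-like gene, was named after its values were seen. After 0, 3 and 5 days it stood at 123, 167 and 74.3 RPKM, from 4986, 6628 and 3019 reads. Like Itgb2 it was highest at 3 days, but its 5-day level was 0.606-fold (95% counting interval 0.579 to 0.634) that at 0 days. On the log2 scale this 5-day ratio was −0.72 for Itgb2l and 0.01 for Itgb2 as deposited, −1.03 and −0.30 after TMM scaling, and −1.07 and −0.39 with the length trend removed. Itgb2l ran at 45.3% (43.9 to 46.9) of the Itgb2 level at 0 days, 41.7% (40.5 to 42.9) at 3 days and 27.3% (26.2 to 28.4) at 5 days. No 50-base word was shared between the transcripts of Itgb2l and Itgb2. The 11 late neutrophil genes compared were also lower at 5 days, and their part in this value was not tested.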
